A study of Homo sapiens with 8 samples.

Results

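The neurotrophic receptor genes followed here are NTRK2, NTRK3, NGFR, SORT1, RET, GFRA1, GFRA2, GFRA3 and ALK. They were chosen by name as receptors of sympathetic neurons and neuroblastoma, with earlier results of these data known. All 9 were found among the 60659 genes of the count table. Total RNA without its ribosomal fraction was sequenced in SK-N-SH, a human neuroblastoma line known to hold neuron-like and flat, substrate-adherent cells, in 4 groups of 2 biological replicates. ZMYND8, the protein that was raised or lowered, reads histone marks and acts in transcription. The study asked how it shapes the response to all-trans retinoic acid (ATRA), which drives neuroblastoma cells toward a neuronal fate.

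All 8 libraries came from cells given ATRA at 10 μM for 24 h, so no group shows these genes without retinoid. The parental group (Parental) was untransduced and received doxycycline (Dox). The overexpression group (ZMYND8 OE) carried a lentiviral, Dox-inducible FLAG-ZMYND8, was selected with G418 and also received Dox. In the knockdown experiment, ZMYND8 knockdown cells (ZMYND8 KD) were set against cells with a control knockdown (KD control), and the labels name no Dox for either. For these SK-N-SH libraries the labels do not spell out the hairpins, and Parental carries no empty vector, so vector, selection and the raised ZMYND8 cannot be told apart in the overexpression comparison.

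Each library held between 38316523 and 56256979 counts. ZMYND8 itself followed the labels. It had 3089 and 3612 counts in Parental, 220691 and 182849 in ZMYND8 OE, 3128 and 3374 in KD control, and 1641 and 1640 in ZMYND8 KD. The knockdown removed only part of the transcript, at a log2 fold change of -0.94 (SE 0.056, adjusted p = 2.20e-06), whereas overexpression raised it by 5.86 (SE 0.060, adjusted p = 5.04e-12). All adjusted p values here are Benjamini-Hochberg values of edgeR's two-sided quasi-likelihood test over every gene tested. A gene rose or fell where that value was below 0.05, and it was called where in addition the absolute log2 fold change was at least 1 and the mean normalized count above 20. With 2 libraries a group, the test sets a difference against the spread between replicate libraries, estimated with help from all genes tested. The p values reach no further than these libraries.

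Neurotrophins and the GDNF family keep sympathetic neurons alive and guide their axons. The TRK kinases, NTRK2 and NTRK3 among them, bind mature neurotrophins, NGFR binds all neurotrophins and with sortilin (SORT1) also their uncleaved precursors, and RET signals only together with a ligand-binding GFRA co-receptor. ALK is a receptor kinase of the developing sympathetic lineage that is mutated or amplified in some neuroblastomas.

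Promoter windows are shown because 6 of the 9 genes had both Parental libraries below all 6 other libraries and so shared a pattern. Of all genes tested, 17.1% had it too. RefSeq windows of 300 bases on GRCh38.p14, from 250 bases before the start to 50 after, were found for 7 of the 9 genes. Given here are those of RET and ALK, which shared that pattern, and of GFRA3, which was high in ZMYND8 OE only. Each starts at the annotated main transcript. RET is at chr10:43076819-43077118 on the forward strand, ALK at chr2:29921537-29921836 and GFRA3 at chr5:138274572-138274871, both on the reverse strand. Letters run 5′ to 3′ along the gene's strand, with matches to the searched motifs in capitals.
RET: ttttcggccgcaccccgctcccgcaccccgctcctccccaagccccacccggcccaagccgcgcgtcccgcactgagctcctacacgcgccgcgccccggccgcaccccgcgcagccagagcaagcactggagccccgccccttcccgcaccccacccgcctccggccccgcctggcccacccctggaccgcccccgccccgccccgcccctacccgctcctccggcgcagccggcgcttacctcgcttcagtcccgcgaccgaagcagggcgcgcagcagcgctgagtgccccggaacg
ALK: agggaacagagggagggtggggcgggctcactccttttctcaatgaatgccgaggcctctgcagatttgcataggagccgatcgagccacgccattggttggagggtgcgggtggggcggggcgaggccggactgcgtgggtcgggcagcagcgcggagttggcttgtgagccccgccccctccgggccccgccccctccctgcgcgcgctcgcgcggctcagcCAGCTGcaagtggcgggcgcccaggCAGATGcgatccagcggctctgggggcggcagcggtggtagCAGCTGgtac
GFRA3: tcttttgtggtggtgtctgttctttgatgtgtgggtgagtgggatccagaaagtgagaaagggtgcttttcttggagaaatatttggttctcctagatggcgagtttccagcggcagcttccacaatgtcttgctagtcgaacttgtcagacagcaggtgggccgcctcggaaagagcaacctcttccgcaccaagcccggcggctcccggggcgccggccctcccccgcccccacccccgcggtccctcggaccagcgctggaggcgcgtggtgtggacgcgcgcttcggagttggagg

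Motifs searched on both strands were AGGTCA and GGTTCA, hexamers bound by retinoid receptors, CAGCTG and CATCTG, E-boxes of bHLH factors, AGATAA, a site of zinc finger factors, and a palindromic site of paired homeodomain proteins. The palindrome CAGCTG reads alike on both strands and was counted once per position, and no match overlapped another. ALK held CAGCTG at 2 positions and CATCTG on the opposite strand at 1. RET, GFRA3, NTRK2 and NTRK3 held no match in their windows. GFRA1 held GGTTCA and CAGCTG in a window 731 bases from its main start, and SORT1 held AGGTCA. Among all 35116 promoter windows, 17.9% held CAGCTG, 14.7% CATCTG, 13.8% AGGTCA, 10.3% AGATAA, 8.62% GGTTCA and 0.196% the homeodomain site. The receptor genes held CAGCTG in 2 of 7 windows and each hexamer of the retinoid receptors in 1 of 7, which describes the letters only.

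Across the libraries the genes fell into 3 patterns. NTRK2, NTRK3, NGFR, RET and ALK were low in Parental and at least 5.35-fold higher in KD control by the fit, GFRA1 and GFRA3 were high in ZMYND8 OE alone, and SORT1 varied little. GFRA2 lay between the first patterns. Both Parental libraries were the lowest of the 8 for NTRK2, NTRK3, NGFR, RET, GFRA2 and ALK, as they were for 17.1% of all genes tested. Both ZMYND8 OE libraries were the highest for RET, GFRA1, GFRA2 and GFRA3, as for 22.2% of all genes.

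**Figure D1:**
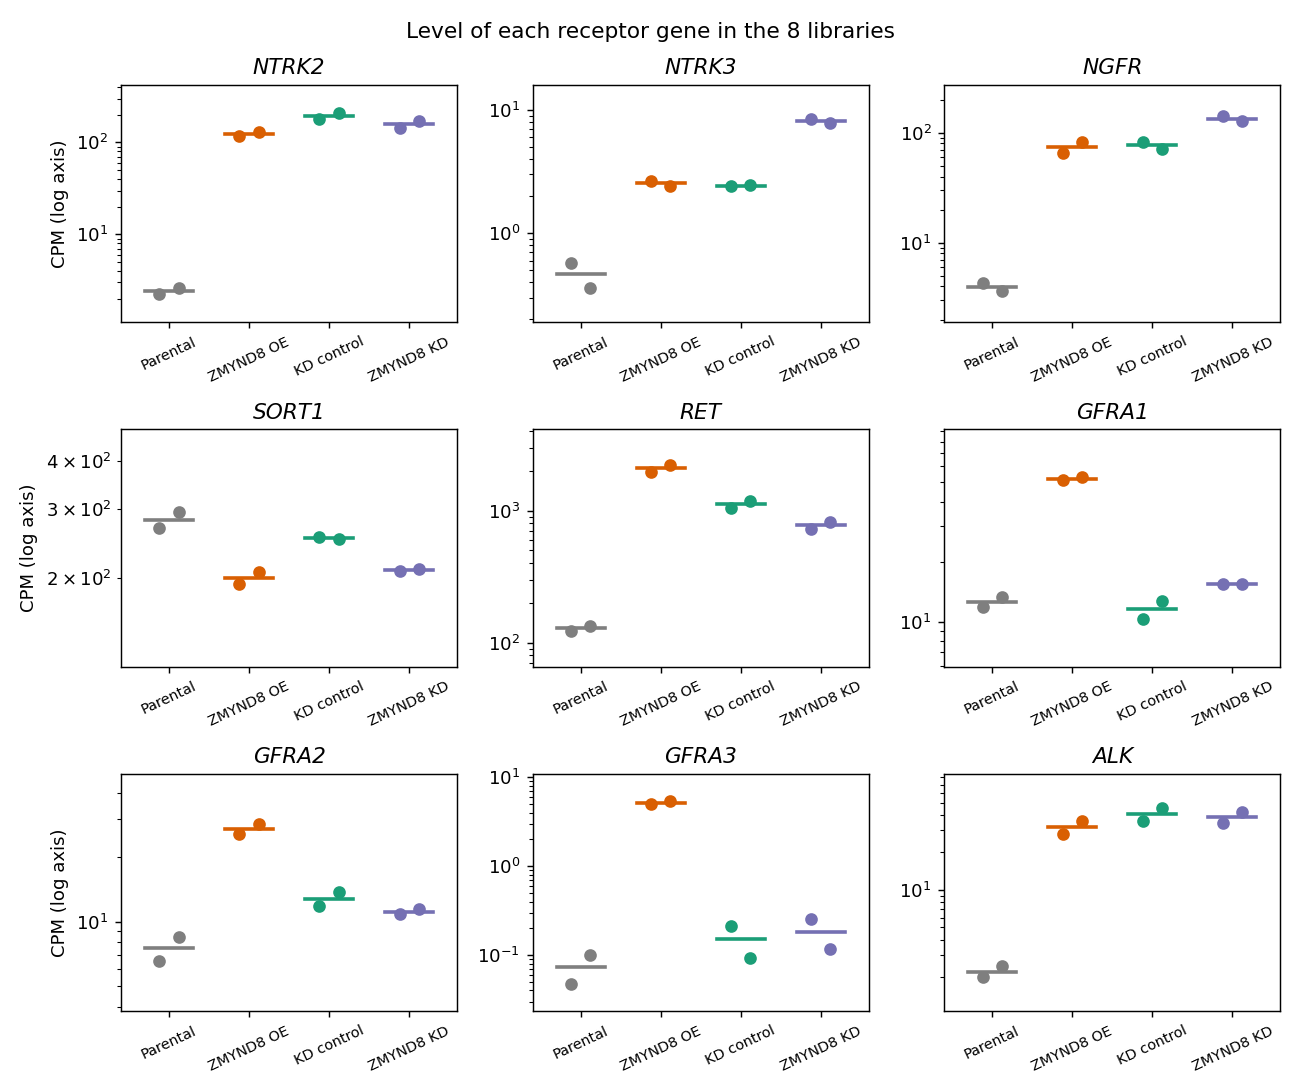
Level of each of the 9 receptor genes in CPM (log axis, normalized over the 8 libraries), with a point for each library and a line at the mean of each group of 2. NTRK2 lies near 2.4 CPM in Parental and above 118 CPM in the other 6 libraries, whereas GFRA3 exceeds 4.9 CPM in ZMYND8 OE only.

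NTRK2 encodes TrkB, the receptor of BDNF, and lies on chromosome 9 (84668551 to 85027054, forward strand, GRCh38). Its levels, as counts scaled to the normalized library size (CPM), were 2.23 and 2.59 CPM in Parental, 119 and 130 CPM in ZMYND8 OE, 178 and 210 CPM in KD control, and 145 and 172 CPM in ZMYND8 KD. No neighbouring groups in this order of means shared a range, and Parental stood far below the rest. Against Parental, ZMYND8 OE was higher by 5.77 on the log2 scale (SE 0.090, adjusted p = 2.85e-11). Against KD control, ZMYND8 KD was lower, at a log2 fold change of -0.29 (SE 0.089, adjusted p = 0.0385). That small fall did not hold with DESeq2, where the fold was the same to 2 decimals and the adjusted p was 0.243, and by edgeR's test it shrank to -0.17 (adjusted p = 0.293) without KD control replicate 2 and to -0.17 (adjusted p = 0.0791) without ZMYND8 KD replicate 1.

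NTRK3 encodes TrkC, the receptor of neurotrophin 3, and lies on chromosome 15 (87859751 to 88256768, reverse strand). Per exon length it was scarcer than NTRK2 in every group. Levels were 0.570 and 0.356 CPM in Parental, 2.64 and 2.43 CPM in ZMYND8 OE, 2.40 and 2.46 CPM in KD control, and 8.50 and 7.86 CPM in ZMYND8 KD. ZMYND8 OE and KD control overlapped, and both ZMYND8 KD libraries stood above every other library. The fitted difference was 2.56 in ZMYND8 OE (SE 0.259, adjusted p = 9.72e-06) from 24 and 18 counts in Parental. In ZMYND8 KD it was 1.75 (SE 0.131, adjusted p = 8.86e-06), from 125 and 134 counts in KD control to 439 and 405. NTRK3 thus rose against the control of its own experiment in both ZMYND8 OE and ZMYND8 KD.

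NGFR encodes the low-affinity neurotrophin receptor and lies on chromosome 17 (49495293 to 49515008, forward strand). Levels were 4.34 and 3.64 CPM in Parental, 65.9 and 82.6 CPM in ZMYND8 OE, 81.9 and 71.7 CPM in KD control, and 142 and 128 CPM in ZMYND8 KD. ZMYND8 OE and KD control overlapped, and ZMYND8 KD was above both. NGFR rose by 4.31 in ZMYND8 OE (SE 0.130, adjusted p = 9.78e-10) and by 0.82 in ZMYND8 KD (SE 0.072, adjusted p = 2.73e-05), the latter short of the fold needed for a call. Of its exon bases, 27.2% lie opposite NGFR-AS1 and another antisense gene, and the strand setting of the counting is not given in the sources used here. Those antisense genes had between 0 and 55 counts per library, against 183 to 7337 for NGFR. The other 8 genes share no exon bases with another gene.

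SORT1 encodes sortilin, a sorting receptor that also pairs with the NGFR product, and lies on chromosome 1 (109309568 to 109397918, reverse strand). Levels were 269 and 294 CPM in Parental, 193 and 206 CPM in ZMYND8 OE, 254 and 252 CPM in KD control, and 208 and 211 CPM in ZMYND8 KD. The means of the highest and lowest groups, Parental and ZMYND8 OE, were 282 ± 17.8 and 200 ± 9.39 CPM (SD, n = 2). SORT1 fell in both experiments, with log2 fold changes of -0.41 in ZMYND8 OE (SE 0.059, adjusted p = 1.48e-04) and -0.27 in ZMYND8 KD (SE 0.048, adjusted p = 0.00226).

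RET, the signalling kinase of the GDNF family, lies on chromosome 10 (43077064 to 43130351, forward strand). It was the most abundant receptor gene of the set outside Parental. Levels were 122 and 135 CPM in Parental, 1960 and 2224 CPM in ZMYND8 OE, 1045 and 1187 CPM in KD control, and 725 and 822 CPM in ZMYND8 KD. None of the 4 groups overlapped. In ZMYND8 OE the rise was 4.12 (SE 0.080, adjusted p = 5.95e-11), with 109150 and 102667 counts against 5134 and 6806. RET fell in ZMYND8 KD, at a log2 fold change of -0.53 (SE 0.076, adjusted p = 6.54e-04).

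GFRA1, the preferred co-receptor of GDNF, lies on chromosome 10 (116056925 to 116273284, reverse strand). Levels were 11.9 and 13.3 CPM in Parental, 51.1 and 53.0 CPM in ZMYND8 OE, 10.3 and 12.7 CPM in KD control, and 15.5 and 15.4 CPM in ZMYND8 KD. Parental and KD control overlapped, unlike for RET. GFRA1 rose by 2.13 in ZMYND8 OE (SE 0.070, adjusted p = 1.67e-09). In ZMYND8 KD it rose by 0.42 (SE 0.107, adjusted p = 0.0161), which fell to 0.27 (adjusted p = 0.120) by edgeR's test without KD control replicate 1 and had an adjusted p of 0.0740 with no filter on low counts.

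GFRA2, the preferred co-receptor of neurturin, lies on chromosome 8. Levels were 6.58 and 8.49 CPM in Parental, 25.7 and 28.4 CPM in ZMYND8 OE, 11.8 and 13.7 CPM in KD control, and 10.8 and 11.5 CPM in ZMYND8 KD. The ZMYND8 OE libraries were the highest and the Parental libraries the lowest. The difference was 1.93 in ZMYND8 OE (SE 0.113, adjusted p = 1.32e-07) and -0.20 in ZMYND8 KD, which did not pass the test (SE 0.102, adjusted p = 0.198).

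GFRA3, the preferred co-receptor of artemin, lies on chromosome 5 (138252380 to 138274621, reverse strand). It had 2 and 5 counts in Parental, 278 and 248 in ZMYND8 OE, 11 and 5 in KD control, and 13 and 6 in ZMYND8 KD. The ZMYND8 OE libraries stood far above the rest. KD control overlapped Parental and ZMYND8 KD, which differed from each other by few counts. The fitted rise in ZMYND8 OE was 6.14 (SE 0.287, adjusted p = 2.19e-08). From summed counts the ratio of ZMYND8 OE to Parental was 68.4, with an exact 95% interval of 32.9 to 171 that covers counting error only. Against KD control the ratio was 34.4 (95% interval 21.0 to 60.6). For ZMYND8 KD over KD control the ratio was 1.23 with an interval of 0.598 to 2.55, so a change of that size was not detectable at this depth.

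ALK lies on chromosome 2 (29192774 to 29921586, reverse strand). Levels were 1.99 and 2.43 CPM in Parental, 28.3 and 35.8 CPM in ZMYND8 OE, 35.5 and 45.6 CPM in KD control, and 34.2 and 42.4 CPM in ZMYND8 KD. Parental stood alone at the bottom, and ZMYND8 OE overlapped ZMYND8 KD, which overlapped KD control. ALK rose by 3.93 in ZMYND8 OE (SE 0.147, adjusted p = 4.14e-09). The difference in ZMYND8 KD was -0.08 (SE 0.119, adjusted p = 0.675), and by edgeR's test it ranged from -0.25 without KD control replicate 1 (adjusted p = 0.148) to 0.11 without KD control replicate 2 (adjusted p = 0.604). Without ZMYND8 KD replicate 2 it was -0.24 and passed (adjusted p = 0.0266).

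In the overexpression comparison, 8 of the 9 genes were called, all of them higher, where 18.6% of the 20835 genes tested were called and 11.8% were called higher. The median log2 fold change of the 9 was 3.93, against 0.03 for all genes tested. As the 9 were chosen with earlier results of these data known, the contrast with all genes only describes them. The libraries of the 2 groups did not overlap for any of the 9, as for 80.9% of all genes tested. In the knockdown comparison, 6 of the 9 had an adjusted p below 0.05, NTRK3, NGFR and GFRA1 higher and RET, NTRK2 and SORT1 lower, where 24.3% of the 19789 genes tested had one, 13.4% higher and 10.8% lower. Only NTRK3 was called, against 1.96% of all genes tested, and the libraries did not overlap for 7 of the 9, as for 61.5% of all genes. The median of the 9 in ZMYND8 KD was -0.08, against -0.01 for all genes. RNA came from whole cultures, so fewer cells of a type and less RNA per cell cannot be told apart in any of these values.

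**Figure D2:**
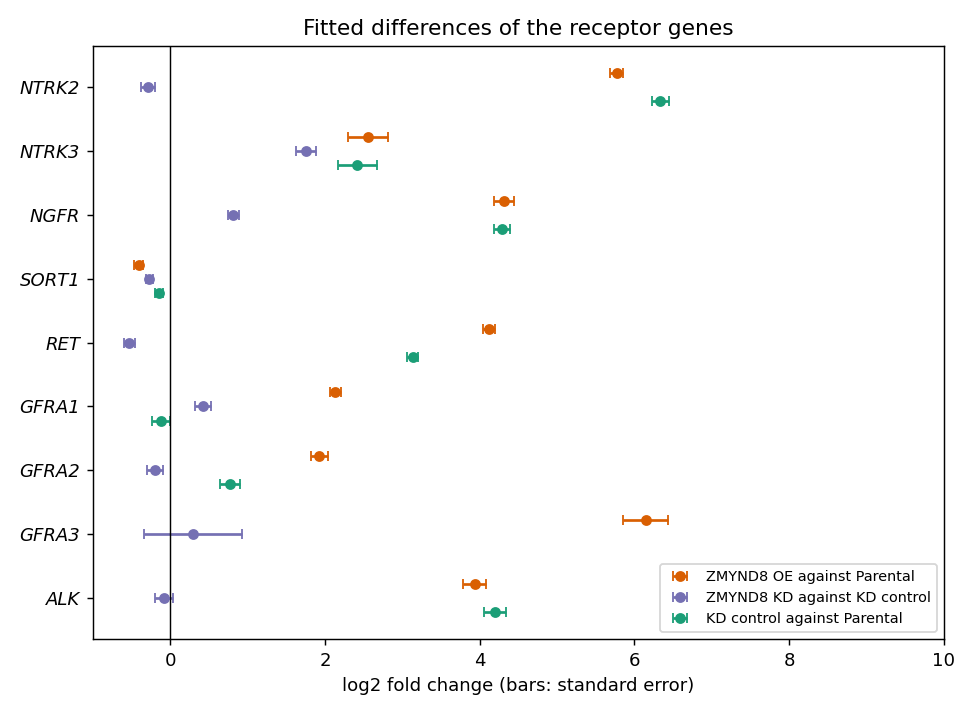
Fitted log2 fold changes of the 9 receptor genes (horizontal axis, bars are standard errors) in ZMYND8 OE against Parental, ZMYND8 KD against KD control and KD control against Parental. All genes but SORT1 lie right of 1.9 in ZMYND8 OE, whereas in ZMYND8 KD only NTRK3 lies right of 1. GFRA3 was not tested in KD control against Parental.

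Overexpression and knockdown differed in effect for 8 of the 9 genes by the test of the difference over all 8 libraries, where 49% of the 22619 genes tested passed. The effect in ZMYND8 OE was the larger for NTRK2 by 6.05 (SE 0.158, adjusted p = 6.32e-13) and for RET by 4.64 (SE 0.121, adjusted p = 6.32e-13). NTRK3 showed the smallest passing difference, 0.80 (SE 0.279, adjusted p = 0.0276), which was 0.74 with DESeq2 (adjusted p = 0.120) and 0.48 without Parental replicate 2 (adjusted p = 0.227). For SORT1 the difference of -0.14 did not pass (SE 0.078, adjusted p = 0.152). RET moved in opposite directions in the experiments, whereas NTRK3 and NGFR rose and SORT1 fell in both. The knockdown values of NTRK2 and GFRA1, lower and higher, lost significance under some alternatives, as given above.

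The controls of the experiments were themselves far apart. In KD control against Parental, NTRK2 was higher by 6.33 (SE 0.109, adjusted p = 1.63e-11), NGFR by 4.29 (SE 0.100, adjusted p = 8.89e-11) and ALK by 4.20 (SE 0.144, adjusted p = 1.34e-09). RET was higher by 3.13 (SE 0.073, adjusted p = 8.97e-11) and NTRK3 by 2.42 (SE 0.250, adjusted p = 7.21e-06). These 5 of the 8 genes tested were called higher, against 10.8% of the 20385 genes tested, of which 21.6% were called in either direction. GFRA2 rose by 0.77 (SE 0.130, adjusted p = 3.19e-04), below the fold for a call. GFRA1 had a log2 fold change of -0.12 (SE 0.115, adjusted p = 0.390) and SORT1 fell slightly, at -0.14 (SE 0.052, adjusted p = 0.0311). GFRA3 had too few counts to be tested. This contrast uses the Parental libraries of the overexpression comparison and the KD control libraries of the knockdown comparison, so its values are not independent of theirs. Experiment, Dox and the control construct all differ between these groups and cannot be told apart. ZMYND8 was slightly lower in KD control than in Parental, at -0.23 (SE 0.050, adjusted p = 0.00163).

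Per exon length, the order of the genes changed with the group. Levels in RPKM use the summed length of all annotated exons, which is 20347 bases for NTRK2 and 26750 bases for NTRK3, so genes with many alternative exons are understated. In Parental, SORT1 led with 30.9 ± 1.95 RPKM (SD, n = 2), followed by RET at 18.7 ± 1.31, and no other gene exceeded 1.33 RPKM. GFRA1 and GFRA2 did not differ beyond their spread there, at 1.33 ± 0.108 and 1.30 ± 0.234 RPKM. RET led in the other groups, with 304 ± 27.2 RPKM in ZMYND8 OE, 162 ± 14.6 in KD control and 113 ± 10.0 in ZMYND8 KD. NGFR reached 17.9 ± 2.85 RPKM in ZMYND8 OE and 18.5 ± 1.75 in KD control, below SORT1, but at 32.6 ± 2.43 in ZMYND8 KD it stood above SORT1 at 23.0 ± 0.208. NTRK3 remained below 0.31 RPKM in every group. ALK was at 0.300 ± 0.0421 RPKM in Parental and between 4.34 ± 0.723 and 5.49 ± 0.964 in the other groups, a range within their spread.

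**Figure D3:**
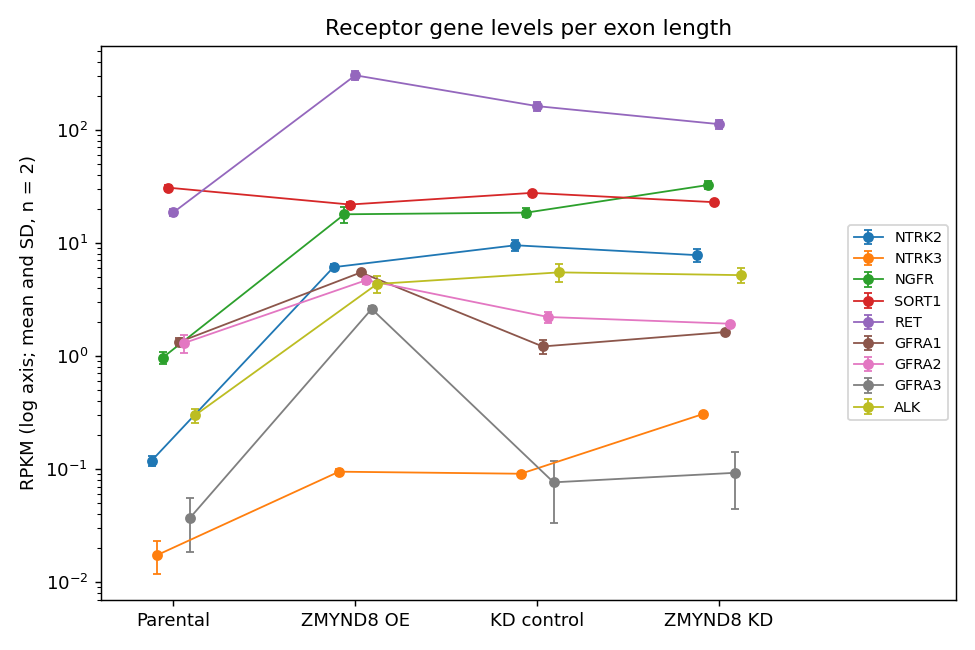
Level per exon length of the 9 receptor genes (RPKM, log axis) as mean and SD of the 2 libraries of each group, with thin lines joining the points of a gene. RET passes SORT1 in all groups but Parental, and NGFR passes SORT1 in ZMYND8 KD.

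The balance between signalling receptors and their partners moved with these levels. RET exceeded the summed GFRA1, GFRA2 and GFRA3 level per length 7.35-fold and 6.71-fold in the Parental libraries, 23.1-fold and 24.5-fold in ZMYND8 OE, 46.9-fold and 45.9-fold in KD control, and 29.0-fold and 32.7-fold in ZMYND8 KD. The 4 groups did not overlap, and KD control was the most lopsided. GFRA3 made up 20.3% and 20.5% of the summed GFRA level in ZMYND8 OE and at most 3.48% in the other 6 libraries. SORT1 exceeded NGFR per length 28.1-fold and 36.7-fold in Parental, whereas the ratio was 0.665 and 0.749 in ZMYND8 KD.

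**Figure D4:**
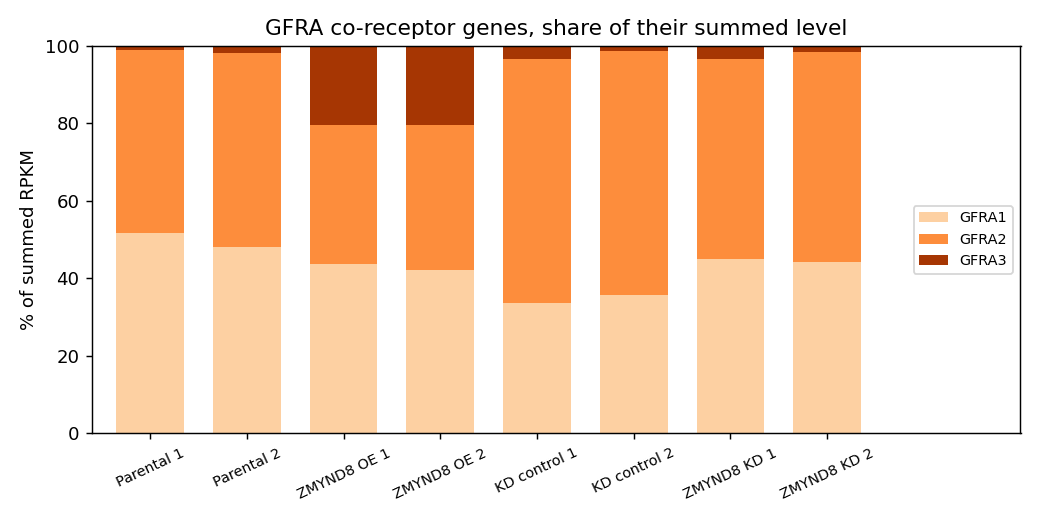
Share of GFRA1, GFRA2 and GFRA3 in their summed level per exon length, in percent, with a stacked bar for each of the 8 libraries. GFRA3 takes 20.3% and 20.5% in ZMYND8 OE and at most 3.48% in the other 6 libraries.

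Ligand genes moved in both directions. Of 12 ligands, 10 were tested in the overexpression comparison, with 1 called higher and 2 called lower. Of all genes tested there, 18.6% were called and 11.8% were called higher. The ligand median log2 fold change was 0.13, also with NTF3, which had 0 counts in both Parental libraries, at its lower bound. Neurturin (NRTN), the ligand of GFRA2, rose by 3.71 (SE 0.194, adjusted p = 5.37e-08), from 17 and 23 counts in Parental to 302 and 241. It had 5 and 5 counts in KD control. GDNF fell, with a log2 fold change of -1.43 (SE 0.170, adjusted p = 3.43e-05). BDNF fell by 0.78 on the log2 scale (adjusted p = 4.54e-06), while midkine (MDK) rose by 0.39 (adjusted p = 9.09e-05) and persephin (PSPN) by 0.45 (adjusted p = 0.00313). Values for ARTN, the artemin gene, and pleiotrophin (PTN) were -0.13 and -0.20 and did not pass. NTF4 had 7 and 8 counts in Parental and 22 and 19 in ZMYND8 OE. The ALK ligand genes, outside the naming rule, were almost silent, with at most 1 count of ALKAL1 and 10 of ALKAL2 in any library.

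In ZMYND8 KD, 3 of 7 ligands tested rose, and none was called by edgeR or by DESeq2, with 3 at an unadjusted p below 0.05 in edgeR. Of all 19789 genes tested there, at least 24.3% had an unadjusted p below 0.05, as that share passed after adjustment. The share at the unadjusted cutoff itself is not reported here, for this or any later list. GDNF rose by 0.99 (SE 0.197, adjusted p = 0.00441) and BDNF by 0.46 (SE 0.076, adjusted p = 0.00152). Both had fallen in ZMYND8 OE. The list median was 0.46, against -0.01 for all genes tested. MDK, PSPN, PTN and ARTN had values of -0.10, -0.14, -0.05 and 0.89 and did not pass.

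Of 15 other receptors and co-receptors listed, 12 were tested in ZMYND8 OE. Of these, 7 were called higher, as were 11.8% of all genes tested, and none lower, with a median of 1.79. The ALK relative LTK rose by 2.59 (SE 0.239, adjusted p = 4.69e-06). LINGO1 and RTN4R, which act with the NGFR product in a receptor for myelin inhibitors, rose by 4.25 and 1.77 (adjusted p = 4.92e-07 and 1.45e-04). SORCS1, a sortilin relative, rose by 1.81 (adjusted p = 1.06e-08), and SORCS3 went from 0 counts in both Parental libraries to 101 and 96, at least 29.8-fold higher with 3 counts per library as the floor. NCAM1, an alternative GDNF receptor, rose by 1.03 (adjusted p = 2.10e-08). Smaller falls were seen for SORL1 (-0.56), SORCS2 (-0.64), the heparan sulfate proteoglycans GPC3 (-0.96) and SDC3 (-0.95), each with an adjusted p below 0.05. PTPRZ1, a receptor of pleiotrophin, had 0 and 1 counts in Parental and 45 and 24 in ZMYND8 OE.

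Among 9 such receptors tested in ZMYND8 KD, none was called by edgeR, where 4 had an unadjusted p below 0.05, or by DESeq2. SDC3 and SORL1 rose by 0.36 and 0.30 (adjusted p = 4.25e-04 and 0.0238). The list median was -0.13. LTK at -0.26 and SORCS2 at 0.36 did not pass, and neither did SORCS1 at -0.13, NCAM1 at -0.13, RTN4R at -0.16 or LINGO1 at 0.34.

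Downstream genes moved in both directions. Of 29 adaptors and signal transducers tested in ZMYND8 OE, 4 were called higher and 3 lower, at a median of 0.10. Among all genes tested there, 18.6% were called and 11.8% were called higher. The adaptor SHC2 rose by 3.28 (SE 0.154, adjusted p = 2.32e-08), GAB2 by 1.43 and BEX1, a binding partner of the NGFR product, by 1.43, whereas IRS1 fell with a log2 fold change of -1.19. Of 20 ERK feedback and response genes, 6 were called higher and 2 lower, at a median of -0.08. The activity-regulated gene ARC rose by 5.29 (SE 0.251, adjusted p = 2.49e-08) and the neurosecretory gene VGF by 2.20 (SE 0.070, adjusted p = 1.46e-09). PHLDA1 and FOSL1 fell, at -2.11 and -1.75. In ZMYND8 KD no gene of either list was called by edgeR or DESeq2. By edgeR, 12 of 28 adaptors and 7 of 20 ERK genes had an unadjusted p below 0.05. So had at least 24.3% of all genes tested. At an adjusted p below 0.05, 4 adaptors were higher and 5 lower, and 4 ERK genes were higher and 2 lower. At that cutoff 13.4% of all genes tested were higher and 10.8% lower.

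**Figure D5:**
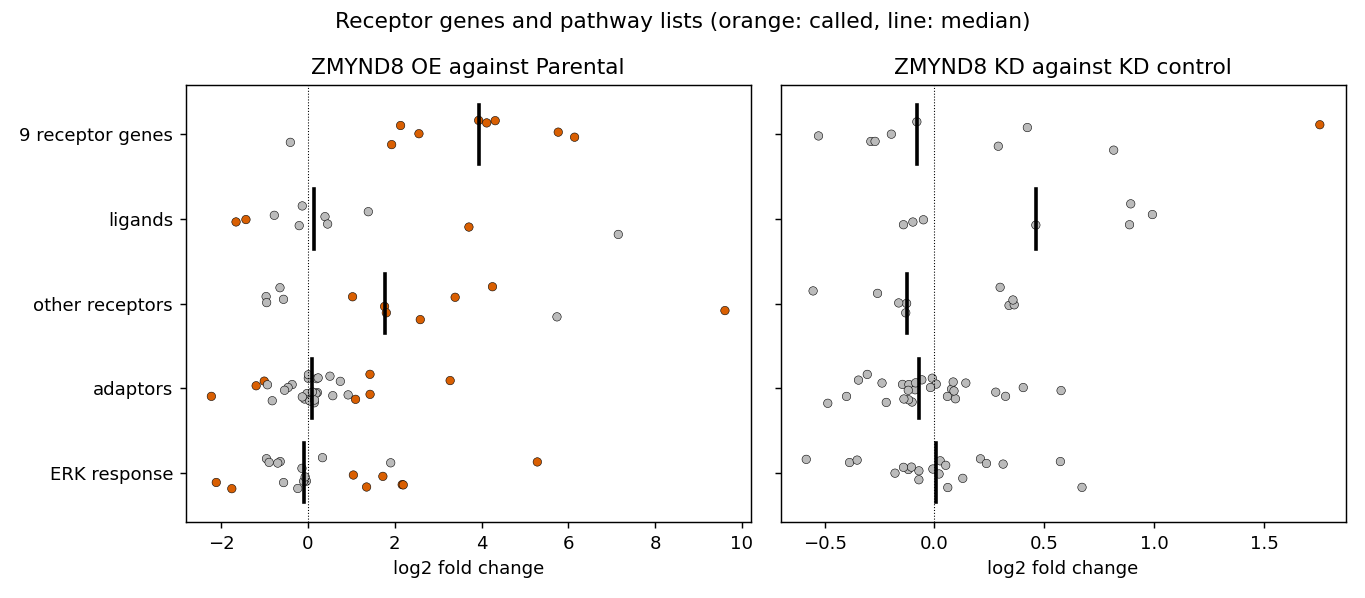
Log2 fold changes of the 9 receptor genes and of 4 pathway lists in ZMYND8 OE against Parental and in ZMYND8 KD against KD control, a point for each gene tested, orange where called, with a line at the list median. The 9 receptor genes have a median of 3.93 in ZMYND8 OE, against 0.13 for ligands and 1.79 for other receptors.

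Markers of the cell states of neuroblastoma also differed between the groups. The summed level of 20 adrenergic markers was 790 to 818 CPM in Parental and 1695 to 1761 CPM in ZMYND8 OE. It was 1270 to 1348 CPM in KD control and 1069 to 1174 CPM in ZMYND8 KD. TH was near 0 in all groups, with 0 and 1 counts in Parental, 5 and 1 in ZMYND8 OE and 0 in the knockdown experiment. The summed level of 19 mesenchymal markers was 14248 to 15301 CPM in Parental and 4834 to 5033 CPM in ZMYND8 OE. It was 7615 to 7702 CPM in KD control and 8878 to 9383 CPM in ZMYND8 KD. In ZMYND8 OE, 14 of 19 adrenergic markers tested were called higher and 1 lower, with TBX2 down at -1.24. Of 17 mesenchymal markers, 9 were called lower and 2 higher, with CD44 at -2.55 and PRRX2 at 1.95. Among all genes tested there, 18.6% were called and 11.8% were called higher. In ZMYND8 KD none was called by edgeR or DESeq2, while 9 adrenergic and 14 mesenchymal markers had an unadjusted p below 0.05 in edgeR. So had at least 24.3% of all genes tested. At an adjusted p below 0.05, 8 of 16 adrenergic markers fell and 1 rose, and 8 of 17 mesenchymal markers rose and 3 fell. At that cutoff 13.4% of all genes tested were higher and 10.8% lower. Of the receptor genes, RET and GFRA2 had the same order of group means as the adrenergic sum. GFRA1 and GFRA3 were also highest in ZMYND8 OE, with another order among the other groups. NTRK2 and ALK were highest in KD control, NTRK3 and NGFR in ZMYND8 KD and SORT1 in Parental. The part of the marker shifts in the receptor results was not tested.

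Of 15 retinoic acid targets in ZMYND8 OE, 4 were called higher and 1 lower, with CYP26A1 at 4.90 and TGM2 at -2.61. Of all genes tested there, 18.6% were called and 11.8% were called higher. In ZMYND8 KD none of 13 was called by DESeq2 or by edgeR, where 9 had an unadjusted p below 0.05. So had at least 24.3% of all genes tested. Schwann cell and melanocyte markers, cells that also carry NGFR, summed to 13.6 to 13.8 CPM in Parental and 20.4 to 21.7 CPM in ZMYND8 OE, where 3 of 6 tested were called higher. In KD control and ZMYND8 KD they summed to 12.9 to 13.4 and 17.5 to 17.9 CPM, and none of 6 was called in ZMYND8 KD by edgeR, where 1 had an unadjusted p below 0.05, or by DESeq2. SOX10, FOXD3, CDH19 and MLANA were at 0 in all 4 libraries of the knockdown experiment, in which NGFR was at 71.7 to 142 CPM. Some other markers of that list moved with NGFR in part of the comparisons only. S100B was at 0.251 CPM in Parental and at 2.08, 1.96 and 1.95 CPM in ZMYND8 OE, KD control and ZMYND8 KD, and it was called higher in KD control against Parental (2.98, adjusted p = 3.03e-06). MITF had the highest level of that list in every group and so weighed most in its sums. It was at 9.81 CPM in Parental, 9.06 CPM in ZMYND8 OE, 8.91 CPM in KD control and 13.3 CPM in ZMYND8 KD. In ZMYND8 KD it rose by 0.58 (adjusted p = 0.00139). ERBB3 and PMEL rose in ZMYND8 OE and were lower in KD control than in Parental, and the part of these cells in the NGFR results was not tested. Endothelial and blood cell markers summed to at most 3.41 CPM in any library, and of 2 tested in ZMYND8 OE 1 was called in each direction. Of 4 tested in ZMYND8 KD, PECAM1 was called lower by edgeR (-1.12) and none by DESeq2.

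Genes most like each receptor across the 8 libraries were sought by Pearson's r of log2(CPM + 1) among the 13546 genes with a mean normalized count above 100. These points share their libraries and the gap between Parental and the rest, which fixes much of r. NTRK2 was followed most closely by STMN2 (0.9997), KIF21A and SYN2, ALK by STMN2 (0.998), NEBL and GARNL3, and RET by UNC13A, GATA2 and CACNG7 (each 0.999). NGFR was followed by PAPPA2 (0.997), NOVA2 and MTURN, NTRK3 by NEGR1 (0.997), NOP53 and DCP2, and GFRA2 by NEURL1 (0.993), FAM88B and ADAMTS10. GFRA3 had too low a mean to be compared.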

How the data were processed

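The authors trimmed paired reads with Trim_Galore, removed reads with a Phred score below 25, mapped what remained on GRCh38 by Hisat2 and used featureCounts with GENCODE 28. They deposited raw counts per gene. The strand setting is not given in the sources used here. Of 60662 lines, 3 that split 1 gene were left out. Symbols and loci came from GENCODE 44, which holds 60418 of the 60659 identifiers, and promoter windows from RefSeq.

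Groups followed the treatment labels. Each comparison was filtered with filterByExpr, TMM-normalized and fitted on all genes in R 4.3.3 (edgeR 4.0.16 with limma 3.58.1) by the two-sided quasi-likelihood test of edgeR, with Benjamini-Hochberg adjustment. The difference of effects was fitted over all 8 libraries. CPM and RPKM were computed with TMM factors over the 8 libraries, so their ratios differ slightly from fitted folds. SE is the log2 fold change divided by the root of F. Replicates differed by more than sampling noise (chi-square per degree of freedom 6.05 to 8.86). The fits were tested on simulated data.

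The text names the 9 receptors, ZMYND8, ligands and other receptors above 20 normalized counts in a group, up to 4 called genes with a mean above 100 of each other pathway list by size of change, leading genes of the marker lists and the 3 genes most like each receptor. Members and lists were chosen with earlier results of these data known. Some genes of the lists are counted but not reported here by name. Alternatives were RLE and upper quartile normalization, no low-count filter, DESeq2 (version 1.42.0), the replicate number as a block, a correction for gene length, other thresholds, 1 fit for all libraries and leaving out each library in turn.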

Additional observations from a re-analysis of the deposited data

Results flagged for a closer look

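For 8 of the 9 receptor genes the effect of ZMYND8 overexpression differed from that of knockdown by edgeR's quasi-likelihood test of the difference over all 8 libraries, as it did for 49% of the 22619 genes tested. The effect of overexpression minus that of knockdown, on the log2 scale, was 6.05 for NTRK2, 5.85 for GFRA3, 4.64 for RET, 4.01 for ALK, 3.49 for NGFR, 2.12 for GFRA2, 1.71 for GFRA1 and 0.80 for NTRK3. The overexpression raised ZMYND8 by 5.86 and the knockdown changed it by -0.94, so the interventions differed in size, and they had different controls. KD control lay above Parental by 6.33 for NTRK2, 4.29 for NGFR, 4.20 for ALK, 3.13 for RET and 2.42 for NTRK3. GFRA2 was at 0.77, GFRA1 at -0.12 and SORT1 at -0.14, and GFRA3 was not tested. The low Parental levels enter the differences listed here. Vector, selection and the raised ZMYND8 cannot be told apart in the overexpression effect. With 2 libraries a group, no library could be tested as standing apart from its group.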

How the results depend on the processing

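Across the 9 genes, 388 values kept their direction and side of the threshold, 15 lost and 4 gained significance, and 5 changed sign. The sign changes came only when leaving out a library and concerned values that had not passed: GFRA3 in ZMYND8 KD (-0.20 and -0.36, range -0.36 to 0.99), ALK in ZMYND8 KD (0.11 and 0.06, range -0.25 to 0.11), and GFRA1 in KD control against Parental (range -0.27 to 0.030). With no threshold on fold change, 11332 of all 20835 genes tested were called in ZMYND8 OE and 4707 of 19789 in ZMYND8 KD. Of the 9 members, 6 were called in ZMYND8 KD. Pathway genes called numbered 55 in ZMYND8 OE and 21 in ZMYND8 KD. Their lists held 10, 12, 29 and 20 genes tested in ZMYND8 OE and 7, 9, 28 and 20 in ZMYND8 KD. Retinoic acid targets called were 13 of 15 and 7 of 13, and mesenchymal markers 17 of 17 and 11 of 17. Of 16 adrenergic markers, 9 were called in ZMYND8 KD. With a trend over gene length taken out, 1 pathway gene and 1 mesenchymal marker were called in ZMYND8 KD. Leaving out each library gave 0 to 1 calls in ZMYND8 KD for the pathway lists, adrenergic markers and mesenchymal markers alike, and kept 8, 1 and 5 receptors called in ZMYND8 OE, ZMYND8 KD and KD control against Parental. Over all alternatives these counts ranged from 7 to 9, 1 to 6 and 4 to 7. With a mean above 100, NTRK3 lost its calls in ZMYND8 OE and in KD control against Parental, which left 7 and 4. Its mean normalized counts there, 74.4 and 72.3, lay below that threshold. Over all genes, a mean above 100 left 2331 calls in ZMYND8 OE and 174 in ZMYND8 KD, against 3876 and 388. Upper quartile scaling moved the median of all genes in ZMYND8 OE from 0.03 to 0.11. The labels give replicate numbers no shared batch, and no pairing was assumed. Deviations of same-numbered libraries correlated at r of 0.101 (Parental and ZMYND8 OE) and 0.201 (KD control and ZMYND8 KD) over 13546 genes. Replicate 2 was above replicate 1 in all 4 groups for NTRK2, RET, GFRA2 and ALK. In the knockdown experiment it was below in both groups for NGFR and GFRA3, while the order differed for NTRK3, SORT1 and GFRA1. Fits without 1 library ignore such a shared shift, and its part in their results was not tested. With the replicate number as a block, 8 receptors were called in ZMYND8 OE, 1 in ZMYND8 KD and 5 in KD control against Parental. Over all genes, 3886 were called in ZMYND8 OE and 393 in ZMYND8 KD. With the block, genes with an adjusted p below 0.05 went from 4799 to 6318 in ZMYND8 KD by edgeR's test. In ZMYND8 OE they went from 12663 to 12742. DESeq2 called 3611 and 282 genes. The 2 libraries a group limit precision, and GFRA3 outside ZMYND8 OE rests on at most 13 counts.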
